A study of Homo sapiens with 52 samples.

Results

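Interferon-stimulated genes are switched on when a cell senses viral or misplaced nucleic acid. A set of 46 of them, together with sensors of DNA and RNA, was followed by gene symbol through senescence of WI-38 cells, a human fetal lung fibroblast line. All 46 were found among the 59408 genes of the deposited tables, and the read counts of all 46 could be worked out for each library, except that on day 1 of DDR-Sen only the mean of the 2 libraries is known for 7 of them. With a mean level of at least 10 normalized read counts, 40 of the 46 entered the tests, among 14051 tested genes. The other 6 members (IRF7, IRF9, OAS1, RSAD2, CMPK2 and ISG20) were too low, and their levels are given without a test.

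The study compared 4 kinds of senescence in mRNA-seq of 52 libraries in 26 groups of 2. Plasma membrane damage-dependent senescence (PMD-Sen) followed 24 h in 0.009% SDS, a detergent, and Ca2+-dependent senescence (Ca2+-Sen) followed 24 h in medium with 75 mM KCl. DNA damage response-dependent senescence (DDR-Sen) followed 24 h in 250 nM doxorubicin (DXR), a topoisomerase poison. Each of these had a group on every day from 0 to 4 and on days 6, 8 and 16, with day 0 at the end of the 24 h treatment, before recovery in fresh medium. Replicative senescence (RS) was reached by passaging without any agent, and the untreated group was young, dividing cells of the same line. RS therefore differed from the untreated cells in passage number and had no time course. There was 1 untreated group, which served as the control of all 25 treated or RS groups, so the comparisons with untreated cells share those 2 libraries and are not independent of each other. The labels give this group no day, and no treated day had an untreated group of its own. In these comparisons treatment cannot be told apart from time in culture.

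Double-stranded RNA is sensed by the helicases RIG-I and MDA5, and DNA in the cytosol by cGAS, which signals through STING. Both routes lead to interferon, and interferon receptors then act through the JAK kinases and a complex with STAT2 and IRF9, which binds a short DNA element in the promoters of interferon-stimulated genes. In senescent fibroblasts, cGAS and STING are known for sensing nuclear DNA that leaks into the cytosol, and late interferon responses have been described in several kinds of senescence.

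The promoter element is printed for 9 members whose levels are given below, since it is the feature they share apart from their expression. The letters GAAANNGAAA (N is any base), a core of the interferon-stimulated response element, were searched on both strands (TTTCNNTTTC on the other) in the 250 bases before each start site. Of the 46 members, 35 had a RefSeq promoter window on GRCh38.p14 and 24 of these (68.6%) held at least 1 match. Among all 27305 genes with a window, 3.71% held a match. Of the 24, 13 members had at least 2 matches in 1 window. Each sequence below runs 5′ to 3′ on the gene's own strand, with the matches in capitals.
IFIT3 (chr10:89327855-89327904, + strand): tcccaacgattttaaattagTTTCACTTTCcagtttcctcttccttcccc
OAS3 (chr12:112938442-112938473, + strand): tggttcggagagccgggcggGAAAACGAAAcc
DDX60 (chr4:168318776-168318825, - strand): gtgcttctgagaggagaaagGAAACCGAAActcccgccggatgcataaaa
ISG15 (chr1:1013370-1013419, + strand): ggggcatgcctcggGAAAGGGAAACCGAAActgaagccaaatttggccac
IFITM3 (chr11:320866-320915, - strand): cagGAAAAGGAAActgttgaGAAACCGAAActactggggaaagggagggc
LGALS3BP (chr17:78979952-78980001, - strand): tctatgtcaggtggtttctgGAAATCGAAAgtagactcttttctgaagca
BST2 (chr19:17405725-17405774, - strand): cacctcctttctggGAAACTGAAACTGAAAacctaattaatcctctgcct
GBP1 (chr1:89065306-89065355, - strand): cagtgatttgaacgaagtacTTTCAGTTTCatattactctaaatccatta
HERC5 (chr4:88457025-88457074, + strand): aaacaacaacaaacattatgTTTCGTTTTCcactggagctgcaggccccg
In ISG15 and BST2 a pair of matches overlaps by 4 bases, which gives the longer run of capitals. A match is a description of these letters and was not tested for binding, and the 11 members with a window but no match are not thereby without such a site.

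Counted reads ran from 15.4 M to 56.8 M a library (M, 1000000 reads). LMNB1, whose loss marks senescence, was lower than in untreated cells in 25 of 25 comparisons. The fibroblast genes THY1, PDGFRB, LUM and FAP together summed to at least 8396 normalized counts in every library, while 10 markers of white blood cells summed to 13.7 to 243, with CD14 the highest of them. Of the markers of the plasmacytoid dendritic cell, a main interferon source in blood, CLEC4C reached 0.637 and IL3RA 10.8. Epithelial markers summed to 988 to 2767, of which KRT18 and KRT19 made up most while EPCAM, CDH1 and SFTPC reached 13.0, 8.93 and 1.27, and endothelial markers summed to 17.1 to 147. The part of other cells in the results below was not tested.

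The 2 libraries of a group did not always carry the same level of interferon-stimulated genes. In PMD-Sen day 8, 36 of the 40 tested members were higher in the library with more reads, by a median of 0.99 on the log2 scale, while the median over all tested genes was -0.01. In Ca2+-Sen day 6, 38 of 40 were higher in the larger library, by a median of 0.62. In RS, 33 of 40 were higher in the smaller library, and the median of the larger minus the smaller was -0.59. In DDR-Sen day 6, 35 of 40 were higher in the smaller library (median -0.49), and the 2 untreated libraries differed by a median of 0.22, with 36 of 40 higher in the larger. The members thus differed in the same direction between samples given the same treatment. The part of these differences in the comparisons was tested by leaving out each library in turn.

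**Figure D1:**
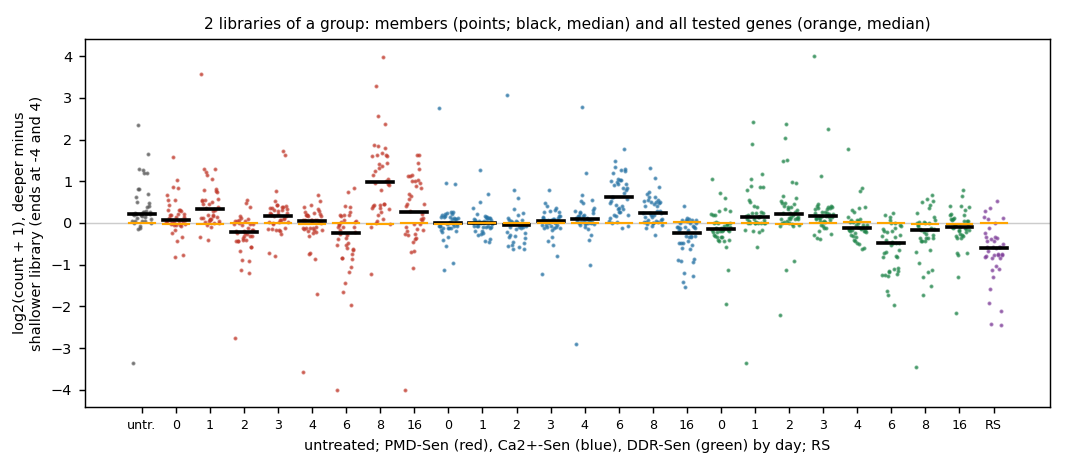
Difference between the 2 libraries of each group (larger minus smaller library, log2 of normalized counts plus 1, with points beyond the scale drawn at its ends of -4 and 4), for the 40 tested members (points, with their median in black) and for all 14051 tested genes (median in orange). The members sit above 0 together in PMD-Sen day 8 (median 0.99) and Ca2+-Sen day 6 (0.62) and below 0 in RS (-0.59), while the medians over all genes stay near 0.

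More members were called lower than higher on days 0 and 2 of PMD-Sen, and more were called higher on its day 16. Normalized counts are given on the scale of the untreated libraries, in the order smaller and then larger library. Tests are from 1 limma-voom fit over all 52 libraries, with p adjusted over the 14051 tested genes, and a member is called changed at an adjusted p under 0.05. On day 0 of PMD-Sen, 18 of 40 members were lower and 2 higher, at a median log2 fold change of -0.85 against 0.00 over all tested genes. As many as 53.6% of all tested genes were called there, so the share of members called (50.0%) was near the background, while 26.5% of all genes were called lower against 45.0% of the members. Without the larger untreated library 13 members were called. On day 0 of Ca2+-Sen, 8 members rose and 6 fell (60.2% of all genes called, median 0.05), and 9 were called without the larger untreated library. On day 0 of DDR-Sen, 6 rose and 4 fell (41.2% of all genes called, median 0.15). In bulk RNA, a change in the share of cells that make an mRNA and a change in its amount per cell cannot be told apart.

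From day 1 to day 6 few members were called in the fit over all libraries, and their share, both directions together, was below that of all genes in each of these groups. In the lower direction alone it was above that of all genes on day 2 of PMD-Sen (17.5% of the members) and on days 1 and 2 of DDR-Sen (17.5% and 12.5%). In PMD-Sen, 2 rose and 5 fell on day 1 (28.0% of all genes called), 7 fell on day 2 (20.6%, 8.45% called lower), 1 rose and 1 fell on day 3 (18.4%), 1 rose and 2 fell on day 4 (22.9%), and 2 rose and 2 fell on day 6 (27.7%). In Ca2+-Sen, 1 fell on day 1 (14.8%, 7.76% called lower), 1 fell on day 3 (13.5%, 7.10% called lower), 1 rose and 1 fell on day 4 (17.5%), and 4 rose and 2 fell on day 6 (24.7%). In Ca2+-Sen day 2 none was called by limma (4.33% of all genes), and 2 had an unadjusted p under 0.05. In DDR-Sen, 2 rose and 7 fell on day 1 (28.7%, 15.2% called lower), 1 rose and 5 fell on day 2 (17.4%, 9.65% called lower), 1 rose and 3 fell on day 3 (20.1%), 1 rose and 5 fell on day 4 (24.3%), and 2 rose and 3 fell on day 6 (34.1%). The median of the members was lowest in PMD-Sen day 2 (-0.68) and lay between -0.46 and 0.15 in the other groups of these days. With any 1 library left out, between 0 and 8 members were called in these groups. The counts depended on which libraries entered the fit. When each comparison was fitted on its own 4 libraries, 18 members fell and 2 rose on day 2 of PMD-Sen (21.6% of all genes called), 11 fell and 4 rose on its day 4 (21.2%), 12 fell and 1 rose on day 2 of DDR-Sen (17.8%) and 10 fell and 5 rose on its day 4 (25.9%), shares above those of all genes.

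The largest counts of members called higher were in Ca2+-Sen day 8, PMD-Sen day 16 and RS. On day 8 of Ca2+-Sen, 19 members rose and CGAS fell (42.0% of all genes called, 19.7% called higher), with 34 of 40 members above 0 and a median of 0.92. Without the smaller untreated library 11 were called, and without the larger Ca2+-Sen library 13. On the same day 2 members rose and 1 fell in PMD-Sen (25.6%, median 0.08), where the median was 0.52, with 7 called, without the smaller PMD-Sen library and -0.52, with 2 called, without the larger. On day 8, 3 rose and 6 fell in DDR-Sen (34.7%, median 0.00). On day 16, 17 members rose and 3 fell in PMD-Sen (43.2%, 19.9% called higher, median 0.71), 5 rose and 1 fell in Ca2+-Sen (14.7%, median 0.38), and 8 rose and 3 fell in DDR-Sen (46.0%, median 0.62). The PMD-Sen count of 20 was 9 without the smaller and 10 without the larger untreated library, and 13 without the larger PMD-Sen library. The 8 rises in DDR-Sen were 13 with libraries scaled by their totals, 11 after centring on the median gene and 4 without a filter on low levels. The DDR-Sen count of 11 was 7 without the smaller untreated library, and the Ca2+-Sen count of 6 was 2 without the smaller untreated library or the smaller Ca2+-Sen library and 3 without the larger untreated library. In RS, 17 rose and 2 fell (48.9%, 23.7% called higher, median 0.61), and 11 or 12 were called without the smaller or the larger untreated library. The RS median was 0.40 without the smaller and 1.04 without the larger RS library. In fits on 4 libraries alone, the counts called were 13 on day 16 of PMD-Sen, 12 in Ca2+-Sen, 24 in DDR-Sen and 7 in RS. The shares of all genes called in these fits are not given here, so the counts cannot be read against them.

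**Figure D2:**
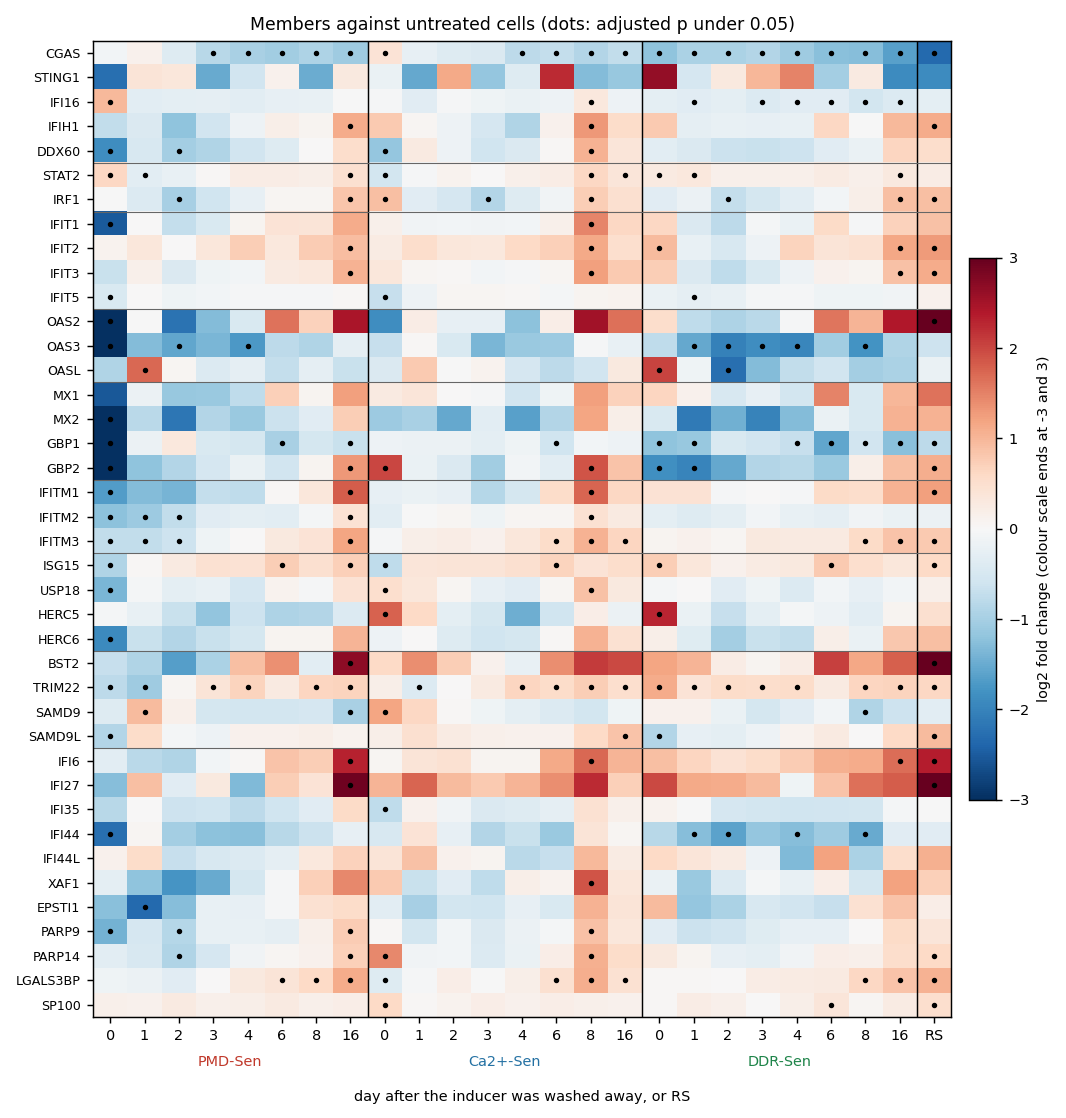
Log2 fold change of the 40 tested members against untreated cells in the 24 treated groups and RS (colour scale, log2; black dots mark an adjusted p under 0.05), ordered by role. PMD-Sen day 0 is mostly blue (18 lower, 2 higher), while Ca2+-Sen day 8 (19 higher), PMD-Sen day 16 (17 higher) and RS (17 higher) are mostly red, with CGAS blue beside them.

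**Figure D3:**
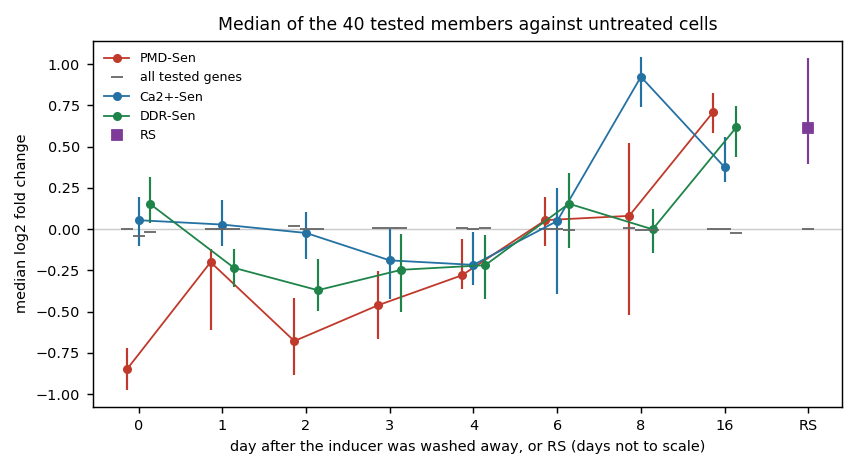
Median log2 fold change of the 40 tested members against untreated cells by day, for each inducer and RS, beside the median of all tested genes; bars give the range of the members' median when 1 library is left out. PMD-Sen runs from -0.85 on day 0 to 0.71 on day 16, and Ca2+-Sen is highest on day 8 at 0.92.

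The inducers were also compared with each other directly, with fold changes that do not use the untreated libraries, though these enter the shared estimate of the spread. On day 0, PMD-Sen was below DDR-Sen in 27 members and above it in 3 (60.9% of all genes called, 28.5% lower, median -1.41). It was below Ca2+-Sen in 21 and above it in 3 (67.1%, median -1.06). The share of members called there (60%) was below that of all genes, whose share called lower is not given here. Ca2+-Sen was above DDR-Sen in 9 members and below it in 11 (68.2%), and the share of members called (50%) was again below that of all genes. Fewer members were called on days 1 and 2, and fewer of all genes too. The members' share, both directions together, was near or below that of all genes on these days. PMD-Sen was above DDR-Sen in 7 members and below it in 6 on day 1 (38.2%), and above it in 3 and below it in 8 on day 2 (27.5%). The first of these counts was 7 and 8 without the larger PMD-Sen and the larger DDR-Sen library, and the second was 5 without the larger PMD-Sen library, and 6 and 2 without the smaller and the larger DDR-Sen library. Ca2+-Sen was above DDR-Sen in 7 members and below it in 2 on day 1 (29.7%), and above it in 3 and below it in 1 on day 2 (10.7%), with 4 to 6 and 1 to 3 called when any 1 of the 4 libraries was left out.

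On day 1 PMD-Sen was below Ca2+-Sen in IFITM2, IFITM3 and TRIM22 alone (20.6%, 9.34% lower), and all 3 were called whichever library was left out. The libraries of Ca2+-Sen had 3324 and 3099 normalized counts of IFITM3 and 974 and 1083 of TRIM22. The PMD-Sen pairs were 1660 and 1748 for IFITM3 and 598 and 687 for TRIM22, so no library overlapped, and the log2 differences were -0.91 ± 0.18 and -0.67 ± 0.12 (adjusted p = 0.00063 and 0.00013). On day 2 it was below in 5 (14.6%, 6.00% lower), 0 without the larger and 4 without the smaller PMD-Sen library and 2 without the smaller Ca2+-Sen library.

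On days 3 to 6 limma called no member in 8 of the 9 comparisons between inducers, with 0 to 4 at an unadjusted p under 0.05. Of all genes, 8.11%, 5.52% and 0.149% were called on day 3 (PMD-Sen against DDR-Sen, Ca2+-Sen against DDR-Sen and PMD-Sen against Ca2+-Sen), 1.32%, 3.30% and 0.135% on day 4, and 0.669%, 5.19% and 0.178% on day 6. The exception was GBP1, higher in Ca2+-Sen than in DDR-Sen on day 6, a call that was lost without the larger Ca2+-Sen library or either DDR-Sen library.

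On day 8, Ca2+-Sen was above DDR-Sen in 22 members and below it in none (25.3% of all genes called, 12.6% higher, median 0.77), with 38 of 40 members above 0. This count was 10 without the larger Ca2+-Sen library, 11 without the larger and 12 without the smaller DDR-Sen library. Of all genes called there, 49.7% were higher in Ca2+-Sen, and 36.2% when libraries were scaled by their totals. PMD-Sen was below Ca2+-Sen on day 8 in 15 members and above it in none (21.9%, 9.49% lower, median -0.77), but 2 were called without the smaller PMD-Sen day 8 library and 23 without the larger, the pair that differed most in the members. Between PMD-Sen and DDR-Sen limma called none on day 8 (2.09%), with 1 at an unadjusted p under 0.05. On day 16 PMD-Sen exceeded DDR-Sen in 2 members, IFI16 and IFITM2 (6.33%, 3.81% higher, median 0.21). The median was 0.04 to 0.31 when 1 library was left out, and neither call held in every such fit. PMD-Sen exceeded Ca2+-Sen in IFITM1, IFITM3, IFI6 and LGALS3BP and was below it in SAMD9 and SAMD9L (26.4%), a count of 3 without either Ca2+-Sen library. Ca2+-Sen was above DDR-Sen in CGAS, GBP1 and IFITM2 and below it in LGALS3BP (31.2%), a count of 2 without the smaller Ca2+-Sen or the larger DDR-Sen library.

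Against RS on day 16, PMD-Sen was higher in 2 members and lower in 2 (26.1% of all genes called), a count of 12 without the smaller and 6 without the larger RS library, 9 without the larger PMD-Sen library and 2 without the smaller. Ca2+-Sen was higher than RS in 3 and lower in 6 (34.4%), and this was 15 without the larger RS library, and 5 and 3 without the smaller and larger Ca2+-Sen library. DDR-Sen was higher than RS in CGAS alone (6.83%). That call was lost whichever of the 4 libraries was left out (adjusted p up to 0.235), and 6 members were called without the larger RS library. Within an inducer, 31 members rose and 2 fell between day 0 and day 16 of PMD-Sen (63.1%, median 1.77), and at least 28 were called whichever of the 4 libraries was left out. Between day 0 and day 1, 14 rose and 2 fell (57.7%), and the share of members called, 40%, was below that of all genes. From day 1 to day 16 a rise was called in 23 and a fall in 3 (55.8%). From day 8 to day 16 of PMD-Sen 10 rose (13.3%, 5.19% higher), a count that was 0 without the smaller and 17 without the larger day 8 library and 2 without the smaller day 16 library. From day 1 to day 16, 17 members rose and 2 fell in DDR-Sen (36.9%), or 11 called in all without the smaller day 1 library. From day 0 the DDR-Sen counts were 7 lower on day 1 (27.9%, 13.4% lower) and 9 higher with 4 lower on day 16 (48.7%), and between days 8 and 16 only IRF1 rose (5.27%), a count of 0 without the smaller day 8 or the larger day 16 library and 2 without the smaller day 16 library. In Ca2+-Sen, 8 members rose and 10 fell between days 0 and 1 (65.3%), 12 rose and 7 fell between days 0 and 16 (63.3%), and 9 rose and 2 fell between days 1 and 16 (29.5%). The shares of members called, 45%, 47.5% and 27.5%, were below those of all genes. So was that of DDR-Sen between days 0 and 16 (32.5%). From day 8 to day 16 of Ca2+-Sen, IFI16, DDX60, GBP2, IFITM1, USP18, XAF1 and LGALS3BP fell and none rose (27.1% of all genes called, 12.4% lower, median -0.47), which is 17.5% of the members. The count was 2 without the larger day 8 or the larger day 16 library and 4 without the smaller day 16 library. The days 0 to 1 count of 18 was 11 without the larger day 0 library, and the days 1 to 16 count of 11 was 4 to 6 with any of the 4 left out.

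Among the sensors, CGAS, which makes the second messenger that activates STING when it binds DNA, fell in 18 of the 25 comparisons and rose in 1. It stood at 158 and 162 normalized counts in the untreated libraries and at 30.0 and 33.3 in RS (log2 fold change -2.33 ± 0.19 (SE), limma adjusted p = 1.3e-11). Both RS libraries were below all others in the series. In DDR-Sen it was already low at day 0, at 64.6 and 74.8 (-1.20 ± 0.16), and at 48.3 and 55.1 on day 16 (-1.62 ± 0.19, adjusted p = 2e-08). In PMD-Sen it was at 149 and 152 on day 0 and at 95.8 and 86.2 on day 3, the first day called (-0.83 ± 0.17), and 84.0 and 70.2 on day 16 (-1.07 ± 0.17). Ca2+-Sen had 217 and 208 on day 0, above both untreated libraries (0.40 ± 0.14, adjusted p = 0.014), and 80.2 and 94.3 on day 8 (-0.87 ± 0.16). The day 0 rise was not called in every fit that left out 1 library. CGAS thus fell also in the 3 groups with the most rises.

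STING1, the adaptor that receives the cGAMP signal, was called in none of the 25 comparisons by limma, and in none was the unadjusted p under 0.05. Its levels fell into separate ranges: 33 libraries were between 10.5 and 53.9 and 19 between 100.4 and 605. In 13 groups 1 library was in each range, among them the untreated group (241 and 22.7) and PMD-Sen day 16 (397 and 19.3), while both libraries were high in Ca2+-Sen day 6, DDR-Sen day 0 and DDR-Sen day 4. No exon base of this gene is shared with another gene in GENCODE v29. With such a spread inside groups, a difference between treatments was not detectable.

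IFI16, a nuclear DNA sensor, was the most abundant sensor. It rose on day 0 of PMD-Sen, from 1164 and 1351 in untreated cells to 2410 and 2505 (0.97 ± 0.12, adjusted p = 8.3e-08). It was 1 of only 2 members that rose in that group, and both libraries lay above every other library. DDR-Sen day 8 had 867 and 861 (-0.54 ± 0.13), and Ca2+-Sen day 8 had 1557 and 1590 (0.32 ± 0.12), a direct difference of 0.86 ± 0.12 (adjusted p = 1.6e-05). Neither day 8 call against untreated cells held in every fit that left out 1 library.

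DDX60, a helicase cofactor of RIG-I, moved the other way on day 0 of PMD-Sen, from 232 and 233 untreated to 51.9 and 76.1 (-1.87 ± 0.44, adjusted p = 0.00056). It fell on day 0 of Ca2+-Sen too, at 111 and 98.8, and rose on day 8 of Ca2+-Sen, at 458 and 504 (1.05 ± 0.28). IFIH1, which encodes MDA5, stood at 53.0 and 60.7 in untreated cells. It rose on day 8 of Ca2+-Sen (122 and 162), on day 16 of PMD-Sen (106 and 141) and in RS (169 and 95.6). The rises were 1.31, 1.10 and 1.11 on the log2 scale, and none was called in every fit that left out 1 library.

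**Figure D4:**
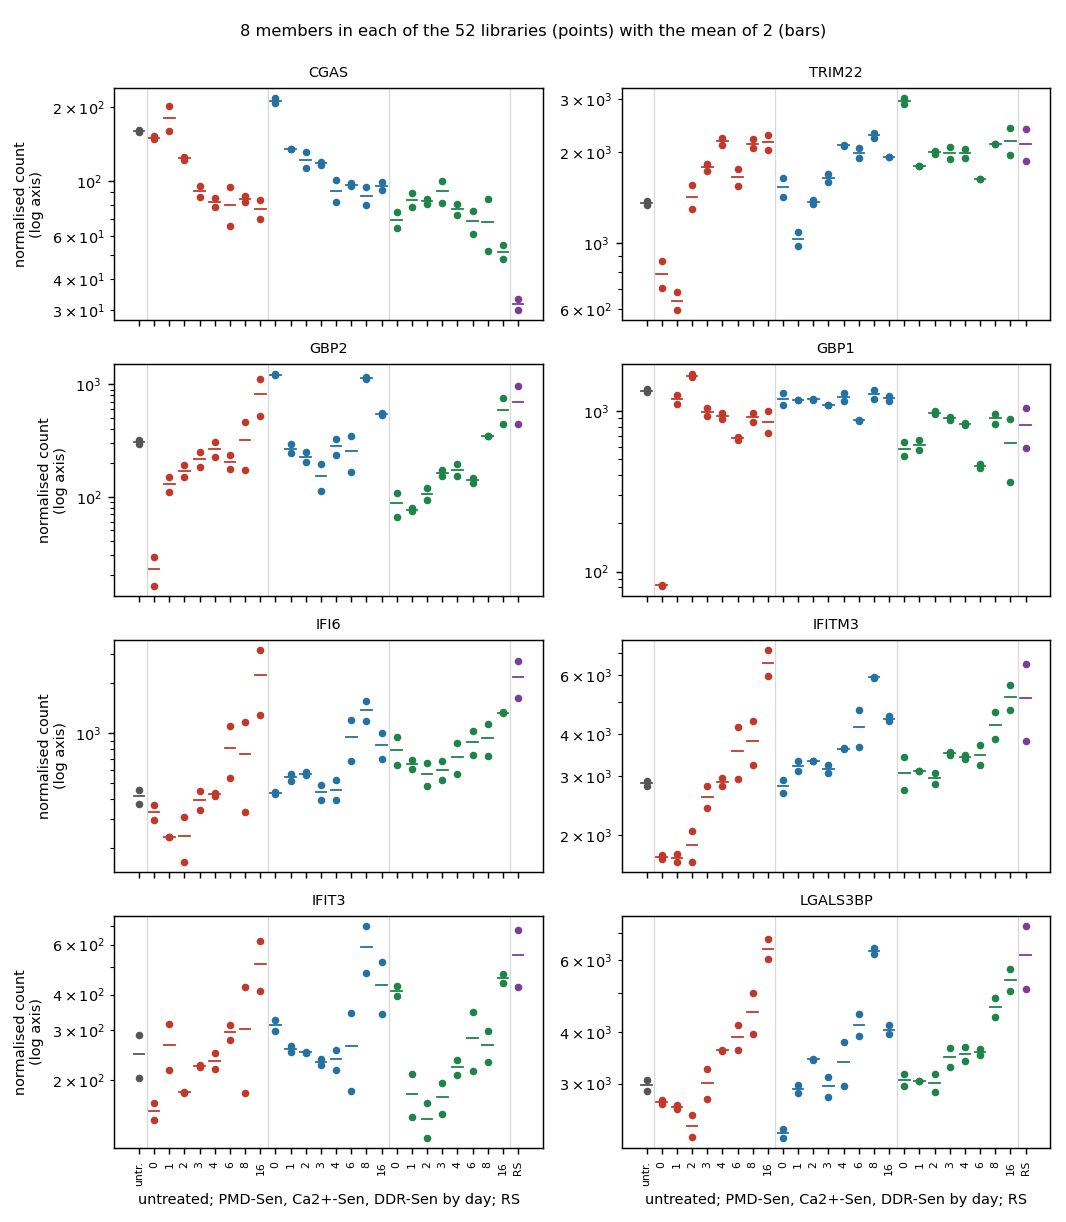
Normalized counts (log scale) of selected members in each of the 52 libraries by day and inducer, with RS and untreated cells; each point is 1 library and each bar the mean of 2. CGAS falls to 30.0 and 33.3 in RS, GBP1 and GBP2 drop on day 0 of PMD-Sen, and IFI6 and LGALS3BP are high in PMD-Sen day 16 and RS.

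Of the transcription factors, STAT2, a subunit of the interferon-activated transcription complex, split the treatments on day 0. Untreated libraries had 1934 and 2286, PMD-Sen 3133 and 3399 (0.63 ± 0.11, adjusted p = 1.1e-05), Ca2+-Sen 1369 and 1524 (-0.54 ± 0.11, adjusted p = 8.7e-05) and DDR-Sen 2540 and 2529 (0.27 ± 0.11). PMD-Sen exceeded Ca2+-Sen by 1.17 ± 0.11 on the log2 scale (adjusted p = 3.4e-11), and no library of either overlapped the untreated pair. The DDR-Sen rise was not called in every fit that left out 1 library. On day 8 of Ca2+-Sen STAT2 was at 3227 and 3278 (0.63 ± 0.11). IRF1, a factor induced by type I and type II interferon and by NF-kB, rose from 420 and 433 to 744 and 844 on day 0 of Ca2+-Sen (0.90 ± 0.21), fell to 233 and 197 on day 2 of PMD-Sen (-1.01 ± 0.23), and was high again on day 16 of PMD-Sen (851 and 695), on day 16 of DDR-Sen (829 and 768) and in RS (985 and 656), by 0.84, 0.90 and 0.90. All of these late libraries were above both untreated ones. IRF7 did not exceed 34.6 normalized counts and IRF9 did not exceed 2.95 in any library. In GENCODE v29, 48.4% of the exon bases of IRF9 are shared with another gene on the same strand, so that reads could be left uncounted, and its low value is uncertain.

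The IFIT genes encode proteins that bind foreign RNA ends. IFIT3 rose from 203 and 289 in untreated cells to 477 and 697 on day 8 of Ca2+-Sen (1.24 ± 0.35, adjusted p = 0.0048), to 411 and 618 on day 16 of PMD-Sen (1.04 ± 0.35) and to 677 and 424 in RS (1.11 ± 0.34). Its libraries in these groups all lay above the untreated pair, though RS spread widely. None of these rises was called in every fit that left out 1 library. IFIT1 fell on day 0 of PMD-Sen from 177 and 274 to 38.1 and 39.8 (-2.51 ± 0.94, adjusted p = 0.024) and rose on day 8 of Ca2+-Sen. Neither call of IFIT1 held in every such fit. IFIT2 rose in 5 comparisons and fell in none. IFIT5 behaved differently from these 3: it never rose, and fell on day 0 of Ca2+-Sen from 553 and 596 to 338 and 372 (-0.69 ± 0.09, adjusted p = 1.8e-07) and on day 0 of PMD-Sen to 422 and 411 (-0.47 ± 0.10).

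The OAS enzymes make the 2-5A messenger when they bind double-stranded RNA. OAS3, the most abundant of them, fell in 8 comparisons and rose in none. It went from 151 and 266 in untreated cells to 27.5 and 23.0 on day 0 of PMD-Sen (-3.02 ± 0.81, adjusted p = 0.0023) and to 42.3 and 59.7 on day 2 of DDR-Sen (-2.02 ± 0.63). The untreated libraries differed more in OAS3 than those of either group. Its fall on day 2 of DDR-Sen was not called in every fit that left out 1 library. OAS2 had no read in either library on day 0 of PMD-Sen, against 3.31 and 20.8 in untreated cells. With a floor of 3 reads a library this is at least 5.51-fold below the untreated mean of 12.1. That mean rests mostly on the larger library, since the smaller held 3 reads, the floor itself. In RS OAS2 was at 203 and 52.7 (3.35 ± 1.07, adjusted p = 0.010), both above the untreated libraries. Neither the fall nor this rise was called in every fit that left out 1 library. OASL, an OAS-like protein without that enzyme activity, rose early: untreated libraries had 12.1 and 10.9, DDR-Sen day 0 had 48.7 and 48.9 (2.04 ± 0.43, adjusted p = 0.00028) and PMD-Sen day 1 had 39.5 and 38.4 (1.71 ± 0.45). By day 2 of DDR-Sen it was at 3.79 and 1.21 (-2.27 ± 0.68), near the floor, and the untreated libraries held only 11 and 12 reads. Neither this fall nor the PMD-Sen day 1 rise was called in every fit that left out 1 library. OAS1 did not exceed 50.3, in RS.

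The guanylate-binding proteins GBP1 and GBP2 are GTPases that coat microbes and vacuoles and respond strongly to interferon-gamma. GBP1 was at 1367 and 1308 in untreated cells and at 81.6 and 83.1 on day 0 of PMD-Sen (-4.01 ± 0.41, adjusted p = 9.2e-10), the lowest levels in the series. On day 2 of PMD-Sen it was back at 1694 and 1630. In DDR-Sen it fell to 523 and 642 on day 0 (-1.20 ± 0.22) and to 442 and 466 on day 6 (-1.55 ± 0.25), and it fell in 11 comparisons and rose in none. GBP2 separated the 3 inducers on day 0. Against 319 and 294 untreated, it was at 29.0 and 16.1 in PMD-Sen (-3.81 ± 0.97), 65.7 and 108 in DDR-Sen (-1.84 ± 0.52) and 1234 and 1205 in Ca2+-Sen (1.99 ± 0.41). No library of these 4 groups overlapped another group, and the log2 difference of PMD-Sen minus Ca2+-Sen was -5.81 ± 0.92 (adjusted p = 2e-06). On day 8 of Ca2+-Sen it was again at 1167 and 1112, and on day 16 of PMD-Sen at 1108 and 527. Its DDR-Sen day 0 fall and PMD-Sen day 16 rise were not called in every fit that left out 1 library. The dynamin-like GTPases MX1 and MX2, which block virus entry and trafficking, varied widely within groups (MX1 at 35.3 and 88.8 in untreated cells). MX1 was called in none of the 25 comparisons by limma, with 1 unadjusted p under 0.05. MX2 fell once, on day 0 of PMD-Sen, a call not kept in every fit that left out 1 library.

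**Figure D5:**
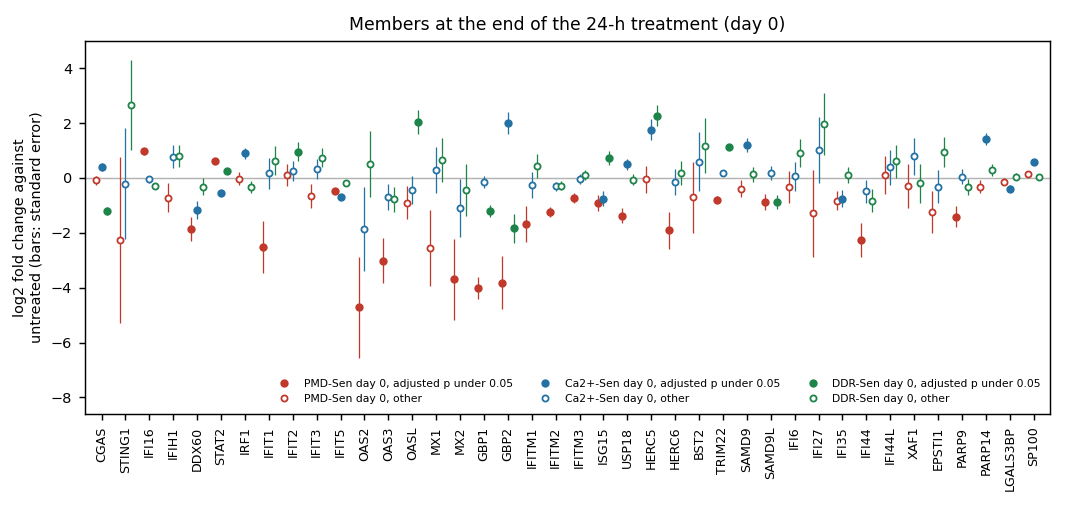
Log2 fold change against untreated cells on day 0, the end of treatment, for the 40 tested members, in PMD-Sen, Ca2+-Sen and DDR-Sen (points with bars for 1 SE, filled where the adjusted p is under 0.05). GBP2 lies at -3.81 in PMD-Sen, -1.84 in DDR-Sen and 1.99 in Ca2+-Sen, and STAT2 is above 0 in PMD-Sen and below 0 in Ca2+-Sen.

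The IFITM proteins sit in membranes and hinder fusion of enveloped viruses. IFITM3 fell on days 0, 1 and 2 of PMD-Sen and rose on day 16. It was at 2809 and 2902 untreated, 1739 and 1688 on day 0 (-0.74 ± 0.19), 1660 and 1748 on day 1 (-0.74 ± 0.19), 2056 and 1662 on day 2, and 7138 and 5954 on day 16 (1.19 ± 0.18, adjusted p = 3e-06). All libraries of these groups lay clear of the untreated pair. It also rose on day 8 of Ca2+-Sen (5911 and 5924, 1.05 ± 0.18), on day 16 of DDR-Sen (5631 and 4714) and in RS (6477 and 3809). IFITM2 fell on the same 3 early days of PMD-Sen, from 935 and 1072 to 449 and 403 on day 0 (-1.24 ± 0.19). The day 2 falls of IFITM2 and IFITM3 were not called in every fit that left out 1 library. IFITM1 rose from 160.0 and 186 to 548 and 609 on day 8 of Ca2+-Sen (1.73 ± 0.43) and to 624 and 611 on day 16 of PMD-Sen (1.83 ± 0.43, adjusted p = 0.00098). IFITM1 and IFITM2 share 32.5% and 22.7% of their exon bases with each other in GENCODE v29 and are near-identical in parts, so counts of these genes are uncertain to that extent.

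ISG15 is a ubiquitin-like protein, HERC5 its ligase, and USP18 removes it from proteins and dampens the interferon receptor. On day 0 ISG15 was at 571 and 642 in untreated cells, 309 and 342 in PMD-Sen (-0.90 ± 0.29), 359 and 361 in Ca2+-Sen (-0.75 ± 0.26) and 1129 and 901 in DDR-Sen (0.73 ± 0.24). The DDR-Sen libraries were thus above, and the other pairs below, the untreated libraries. The log2 difference of PMD-Sen minus DDR-Sen was -1.63 ± 0.26 (adjusted p = 2.4e-06). No day 0 call of ISG15 against untreated cells held in every fit that left out 1 library. HERC5 rose on day 0 in DDR-Sen, from 7.73 and 19.9 to 67.9 and 61.5 (2.27 ± 0.39, adjusted p = 1.7e-05), and in Ca2+-Sen, to 42.5 and 46.9 (1.76 ± 0.40). It was called in no later group. USP18 fell on day 0 of PMD-Sen, from 159 and 189 to 78.6 and 58.0 (-1.38 ± 0.28), and rose on day 8 of Ca2+-Sen to 299.9 and 344 (0.88 ± 0.20). HERC6, a relative of HERC5, fell on day 0 of PMD-Sen alone, a call not kept in every fit that left out 1 library.

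Among the other antiviral proteins, TRIM22, a p53- and interferon-inducible ubiquitin ligase, was called most often for a rise, in 16 comparisons, with 3 falls. DDR-Sen day 0 had 3022 and 2882 against 1338 and 1377 untreated (1.12 ± 0.11, adjusted p = 5.5e-10), the highest in the series. PMD-Sen had 706 and 872 on day 0 (-0.79 ± 0.12) and 598 and 687 on day 1 (-1.07 ± 0.12, adjusted p = 1e-07), then 2114 and 2228 on day 4 (0.68 ± 0.11) and 2275 and 2041 on day 16. On day 1 of DDR-Sen only the mean of the 2 libraries, 1795, could be worked out for TRIM22, as for STAT2 (2619), so tests there rest on equal values. On day 0, PMD-Sen minus DDR-Sen was -1.91 ± 0.11 (adjusted p = 1.8e-15).

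SAMD9L, a brake on growth factor signalling and translation, went from 633 and 735 to 1724 and 1019 in RS (0.94 ± 0.25) and fell on day 0 of DDR-Sen and PMD-Sen (-0.87 and -0.88). Its paralog SAMD9 rose on day 0 of Ca2+-Sen, from 513 and 570 to 1200 and 1283 (1.19 ± 0.27), and on day 1 of PMD-Sen, and fell on its day 16. Of these calls of SAMD9L and SAMD9, only the Ca2+-Sen rise held in every fit that left out 1 library. BST2, or tetherin, which holds budding virus at the cell surface, was low in untreated cells (2.21 and 6.34). It rose to 15.3 and 49.4 in PMD-Sen day 16 (2.68 ± 0.98, adjusted p = 0.026) and in RS to 47.3 and 30.9 (3.08 ± 0.94, adjusted p = 0.0073). Neither rise was called in every fit that left out 1 library. Among the untested members of this group, RSAD2 reached at most 15 and CMPK2 at most 10.6 normalized counts, while ISG20 reached 37.6 on day 0 of DDR-Sen.

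Of the remaining members, IFI6, a mitochondrial and endoplasmic reticulum protein, rose late. It was at 372 and 453 untreated, 1295 and 3182 on day 16 of PMD-Sen (2.30 ± 0.50, adjusted p = 0.0004), 2726 and 1639 in RS (2.34 ± 0.49, adjusted p = 0.00021), 1187 and 1573 on day 8 of Ca2+-Sen (1.73 ± 0.50) and 1315 and 1349 on day 16 of DDR-Sen (1.69 ± 0.50). All 8 libraries were above both untreated ones. The Ca2+-Sen and DDR-Sen rises were not called in every fit that left out 1 library. IFI27, from the same family, rose from 2.21 and 6.34 to 18.2 and 58.5 in PMD-Sen day 16 and to 49.9 and 33.0 in RS (3.17 ± 1.08, adjusted p = 0.016). Neither rise of IFI27 was called in every fit that left out 1 library.

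LGALS3BP, a secreted glycoprotein, rose in 9 comparisons. From 2877 and 3060 it went to 6764 and 6026 on day 16 of PMD-Sen (1.10 ± 0.13, adjusted p = 3.7e-08), 6435 and 6209 on day 8 of Ca2+-Sen (1.09 ± 0.13) and 7267 and 5109 in RS (1.03 ± 0.13). On day 16 PMD-Sen exceeded Ca2+-Sen (3955 and 4161) by 0.65 ± 0.12 (adjusted p = 0.00022). PARP14, a mono-ADP-ribosyltransferase, rose on day 0 of Ca2+-Sen from 736 and 861 to 2178 and 2146 (1.43 ± 0.22, adjusted p = 1.2e-06) and again on day 8 (1620 and 1716). SP100, a nuclear body component, rose on day 0 of Ca2+-Sen (2132 and 2316 against 1468 and 1476, 0.60 ± 0.11) and in RS (2014 and 2175, 0.51 ± 0.10).

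XAF1, a pro-apoptotic protein, rose on day 8 of Ca2+-Sen from 12.1 and 17.2 to 46.3 and 66.1 (1.89 ± 0.63, adjusted p = 0.017). This call was not kept in every fit that left out 1 library. PARP9 fell on day 0 and day 2 of PMD-Sen and rose on its day 16 and on day 8 of Ca2+-Sen. Only its day 0 fall was called in every such fit. IFI44 fell in 5 comparisons, 4 of them in DDR-Sen, and rose in none. IFI35 and EPSTI1 each fell once, and IFI44L was never called by limma, with no unadjusted p under 0.05. Across the 40 tested members, 20 were called both higher and lower in different comparisons, 9 only higher, 8 only lower and 3 never (STING1, MX1 and IFI44L).

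Of 42 further symbols on a list of interferons, their receptors and signalling genes, 38 had recovered counts and 27 were tested. On day 0 of PMD-Sen 4 rose and 9 fell (53.6% of all genes called), on day 8 of Ca2+-Sen 11 rose and 5 fell (42.0%), on day 16 of PMD-Sen 9 rose and 3 fell (43.2%), and in RS 7 rose and 4 fell (48.9%). The share called was thus below that of all genes in RS and PMD-Sen day 0. Medians of this list over the 25 comparisons lay between -0.19, on day 0 of PMD-Sen, and 0.11, on day 8 of Ca2+-Sen. The interferon genes IFNA2, IFNB1, IFNG, IFNK and IFNL2 were below 2 normalized counts in every library, too few for a difference to be detectable (these 5 were named after their values were seen). IFNA1 was also under the filter and reached 21.5. IFNE, an epithelial interferon, was at 25.4 and 19.0 in untreated cells, rose to 58.4 and 63.4 on day 1 of PMD-Sen (1.47 ± 0.49) and fell in 4 comparisons, among them PMD-Sen day 16 (6.24 and 6.11).

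The receptor chain IFNGR1 rose on day 0 of PMD-Sen, from 462 and 437 to 937 and 944 (1.07 ± 0.10, adjusted p = 6.9e-11). SOCS1, a feedback inhibitor of JAK kinases, fell there from 135 and 198 to 29.8 and 37.0 (-2.30 ± 0.54), and SOCS3 from 845 and 844 to 237 and 221 (-1.88 ± 0.31). Neither fall was particular to that group: SOCS1 fell in 9 comparisons and rose in 1, and SOCS3 fell in 11 and rose in none. Among the RNA sensors, DHX58, which encodes LGP2, rose from 77.3 and 78.8 to 240.0 and 242 on day 16 of PMD-Sen (1.62 ± 0.27), 239 and 259.9 on day 8 of Ca2+-Sen and 208 and 158 in RS, and fell to 23.5 and 24.7 on day 0 of Ca2+-Sen. TLR3, the endosomal sensor of double-stranded RNA, rose in 7 comparisons, on days 0, 8 and 16 of Ca2+-Sen, days 8 and 16 of DDR-Sen, PMD-Sen day 16 and RS. It rose to 239 and 144 in RS from 32.0 and 59.8 (2.00 ± 0.37) and fell to 6.87 and 9.08 on day 0 of PMD-Sen (-2.45 ± 0.66). The groups named for each of these genes did not overlap the untreated libraries.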

How the data were processed

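RNA of 52 WI-38 cultures was sequenced by the authors by mRNA-seq as 150-base read pairs, with 2 independent samples a group. Per the labels, reads were processed with Trim Galore, HISAT2, HTSeq, featureCounts and DESeq2 on GRCh38/hg38 (versions, and whether counting used strand, are not given in the sources used here). The 52 tables deposited by the authors were 25 distinct DESeq2 tables, each a group against the same untreated pair. The deposited mean normalized count, a signal in normalized reads, was made by the authors by dividing read counts by size factors. The deposited log2 fold changes, their errors and p-values are the authors' own comparison and are not reported: log2 values were used only to tell the untreated libraries apart, to narrow the search and for the levels of genes without recovered counts in library totals.

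Since the mean is a sum of whole counts over size factors, each library's counts were solved from it: 45495 of 46275 genes with reads were recovered, holding about 73% of the reads of the untreated libraries, and 780 genes, mostly abundant, were not. The recovery and the fit were tested on simulated data. Libraries are told apart by depth, since no replicate number can be linked to them. On DDR-Sen day 1 the pair of STAT2, IFIT5, IFITM2, IFITM3, TRIM22, IFI35 and LGALS3BP was not unique, and both libraries were set to the mean.

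Counts were fitted with limma-voom (limma 3.58.1, R 4.3.3) over all 52 libraries, with the authors' size factors, for the 14051 genes whose normalized count averaged 10 or more across the 26 groups. Each gene was tested in 25 comparisons with untreated cells, 27 between inducers or with RS and 12 between days, two-sided, with Benjamini-Hochberg adjustment over all tested genes at 0.05. A test on the deposited fold changes had been planned for tables without counts and was replaced by this one once counts could be recovered. Errors are SE of the fitted log2 fold change. Libraries held 15.4 M to 56.8 M counted reads (M, 1000000), and where both libraries had no read a floor of 3 reads a library was used, which covers counting error only.

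The members and gene lists were chosen with earlier results of these data known. Given day by day are the 2 members of each role group with the highest mean level and, for each inducer and RS, the 3 called members with the largest rise and fall; other members are named by role, and genes of the pathway list where called at a log2 fold change of at least 1. Alternatives were a stricter filter and none, library totals, centring on the median gene, an error floor, 4 libraries alone and each library left out. Promoters are RefSeq's for GRCh38.p14, and exon overlaps are from GENCODE v29. All per-sample columns of the tables were used or are named above (0 others). Genes withheld from this text are not reported here.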

Additional observations from a re-analysis of the deposited data

Results flagged for a closer look

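In 13 cases a member was called in opposite directions against untreated cells in 2 groups of the same day. The direct comparison of those 2 groups was called as well, in all 4 fits that left out 1 of their libraries. With opposite calls against the same control a direct call is likely, so it is no separate check. Both calls against untreated cells held in every fit that left out 1 library for TRIM22 in PMD-Sen and DDR-Sen on days 0 and 1. They also did for STAT2 and GBP2 in PMD-Sen and Ca2+-Sen on day 0, and in no other case. On day 0, PMD-Sen minus DDR-Sen was -1.63 on the log2 scale for ISG15 and -1.91 for TRIM22. Ca2+-Sen minus DDR-Sen was 1.60 for CGAS, -0.81 for STAT2, 3.83 for GBP2 and -1.48 for ISG15. PMD-Sen minus Ca2+-Sen was 1.17 for STAT2, -5.81 for GBP2 and -1.88 for USP18. On day 1, PMD-Sen minus DDR-Sen was -0.64 for STAT2 and -1.47 for TRIM22, and Ca2+-Sen minus DDR-Sen was -0.80 for TRIM22. On day 8, Ca2+-Sen minus DDR-Sen was 0.86 for IFI16. On day 1 of DDR-Sen the 2 libraries of STAT2 and TRIM22 were set to their mean, which understates the spread there. Leaving out either of them keeps that group's level as it was, so those fits are no check of the day 1 cases.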

How the results depend on the processing

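No paired analysis was possible because the recovered libraries carry no replicate number. The alternative that takes out the variance of the shared untreated libraries was not run, since inducers were compared directly.

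Scaling by library totals, centring on the median gene and an error floor kept the counts of called members, both directions together, within 1.5 times against untreated and between days. In 1 direction, library totals gave 13 for 8 higher on day 16 and 4 for 2 higher on day 6 of DDR-Sen and 3 for 5 lower on its day 4, and the error floor 1 for 2 lower on day 6 of Ca2+-Sen. Between inducers and with RS, member counts were compared only under centring and with 1 library left out. PMD-Sen minus DDR-Sen on day 16 had 1 after centring. With a mean of at least 100, 2 members were called in Ca2+-Sen day 1 and 3 between days 0 and 1 of DDR-Sen, and the median of PMD-Sen day 2 was -0.41. Without a filter on low levels, the counts against untreated were 4, 1 and 2 on days 1, 3 and 6 of PMD-Sen, 0, 0, 2 and 1 on days 1, 3, 6 and 16 of Ca2+-Sen, and 2, 3, 2, 4 and 7 on days 1, 2, 6, 8 and 16 of DDR-Sen; 3 were called between days 8 and 16 of PMD-Sen and 4 between days 1 and 16 of Ca2+-Sen. With 4 libraries alone, a fit chosen after seeing the data, the counts were 14, 20, 10, 15 and 13 on days 1, 2, 3, 4 and 16 of PMD-Sen, 10, 1, 9, 10 and 12 on days 1, 2, 3, 4 and 16 of Ca2+-Sen, 13, 7, 15, 11 and 24 on days 2, 3, 4, 6 and 16 of DDR-Sen, and 7 in RS. The causes of these shifts were not tested, and most of these counts stand without the share of all genes called in the same fit. Called changes of single members named day by day kept their direction in all alternatives. Of these 159 changes, 46 lost their call without a filter, 23 with 4 libraries alone, 6 with library totals and 5 with the error floor, as did 196 of 636 refits with 1 library left out.

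With 1 library left out, the counts against untreated ranged from 13 to 20, 3 to 7, 1 to 5, 1 to 2, 2 to 4, 2 to 7 and 9 to 20 on days 0, 1, 2, 3, 6, 8 and 16 of PMD-Sen. They ranged from 9 to 12, 0 to 1, 0 to 1, 2 to 4, 11 to 20 and 2 to 4 on days 0, 1, 3, 6, 8 and 16 of Ca2+-Sen. They ranged from 4 to 8, 2 to 4, 2 to 4, 2 to 5, 3 to 6, 3 to 6 and 7 to 11 on days 1 to 4 and days 6, 8 and 16 of DDR-Sen, and from 11 to 27 in RS. Medians of the members ranged from -0.61 to -0.12, -0.89 to -0.42, -0.67 to -0.25 and -0.36 to -0.06 on days 1 to 4 of PMD-Sen, from -0.42 to 0.00 and -0.34 to -0.02 on days 3 and 4 of Ca2+-Sen, and from -0.50 to -0.03, -0.42 to -0.04 and 0.43 to 0.75 on days 3, 4 and 16 of DDR-Sen. They ranged from -0.52 to 0.52 on day 8 of PMD-Sen and from 0.40 to 1.04 in RS. Between inducers, PMD-Sen minus DDR-Sen ranged from 7 to 13, 2 to 9 and 0 to 7 on days 1, 2 and 16, Ca2+-Sen minus DDR-Sen from 4 to 6, 1 to 3, 0 to 2, 10 to 18 and 2 to 5 on days 1, 2, 6, 8 and 16, and PMD-Sen minus Ca2+-Sen from 0 to 4, 2 to 23 and 3 to 7 on days 2, 8 and 16. Against RS on day 16 the ranges were 2 to 12 for PMD-Sen, 3 to 15 for Ca2+-Sen and 1 to 6 for DDR-Sen. Between days they were 0 to 17 from day 8 to 16 of PMD-Sen, 11 to 16, 4 to 6 and 2 to 5 in Ca2+-Sen (days 0 to 1, 1 to 16 and 8 to 16), and 11 to 18 and 0 to 2 in DDR-Sen (days 1 to 16 and 8 to 16).

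The share of all called genes that were higher moved by over 10 points under library totals, from 54.2% to 64.6% on day 1 of PMD-Sen and from 47.4% to 62.9% on day 1 of Ca2+-Sen.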
